A study of Mus musculus with 10 samples.

Results

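Liver-enriched miRNAs were followed in small extracellular vesicles of mice: both arms of miR-122 (miR-122-5p and miR-122-3p), miR-192-5p, miR-194-5p and miR-215-5p. They were chosen by name, and all 5 were found in both deposited tables, out of 721 miRNAs listed in either and 394 listed in both. The vesicles had been isolated from C57BL/6J mice, from either plasma or brown adipose tissue (BAT). The titles sort the 10 libraries into 4 groups: 3 libraries each of Sed and Exe for BAT, and 2 each for plasma. Exe is read as exercised and Sed as sedentary. The labels give every library, Sed included, the same schedule of 90 min sessions, 2 a day, over 4 weeks. Age, sex and number of animals are not given in the labels, which do not say that replicates are separate animals, so that p-values measure the spread between libraries only.

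A miRNA is a short RNA that guides Argonaute proteins to messenger RNAs, which it recognises mainly through its seed, bases 2 to 8. Hepatocytes make miR-122 in very large amounts, and most of it is the 5p arm. The 3p arm is the passenger strand that is usually lost when the duplex is loaded. Circulating miR-122 is widely used as a marker of liver injury. The miRNAs miR-192, miR-194 and miR-215 are made in liver too, but also in gut and kidney epithelium. They come from a pair of gene clusters, each with a miR-194 gene beside miR-192 or miR-215. Hepatocyte nuclear factors and p53 are known to drive these genes.

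The mature sequences show which of these miRNAs share a seed. They are given 5′ to 3′ from RefSeq (GRCm38.p6), which matched 3 of the 5 members, with the seed in capitals:
miR-192-5p: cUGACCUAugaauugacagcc
miR-215-5p: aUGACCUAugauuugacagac
miR-194-5p: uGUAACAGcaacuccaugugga
The first and second lines have the same seed. Among the 1679 mature mouse miRNAs that were searched no other miRNA had it, and the seed of miR-194-5p was found in miR-194-5p alone. The search did not cover every mature mouse miRNA. All entries of a whole chromosome were left out before it, and neither arm of miR-122 was matched, so seeds outside it were not checked. Counted from the 5′ end of miR-192-5p, miR-215-5p differed at 3 of 21 positions (C1A, A12U and C20A), all outside the seed. Reads of the pair can therefore be told apart only through these bases.

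The hairpins are shown because they decide what a read can be assigned to. Capitals mark the 5p arm that was counted:
Mir194-2: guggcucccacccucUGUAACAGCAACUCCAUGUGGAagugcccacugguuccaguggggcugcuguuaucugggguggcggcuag
Mir192: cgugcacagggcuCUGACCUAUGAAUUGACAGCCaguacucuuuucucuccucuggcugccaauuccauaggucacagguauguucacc
Mir194-1: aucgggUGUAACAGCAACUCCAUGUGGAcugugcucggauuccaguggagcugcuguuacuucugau
Mir215: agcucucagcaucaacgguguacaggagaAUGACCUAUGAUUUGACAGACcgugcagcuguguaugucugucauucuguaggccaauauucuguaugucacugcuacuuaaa
Mir194-2 (chr19:6264643-6264728, plus strand) lies 115 bases before Mir192 (chr19:6264844-6264932, plus strand), and GENCODE M21 (GRCm38) places no other gene over either hairpin. Mir194-1 (chr1:185313319-185313385, plus strand) lies 195 bases before Mir215 (chr1:185313581-185313692, plus strand). Both of these lie inside the gene Iars2 but on the opposite strand and outside its exons, and inside the antisense gene 2010103J01Rik, where Mir215 overlaps an exon. Both miR-194 genes give the same miR-194-5p, so its reads belong to the 2 loci together. Their 3p arms differ at 4 of 22 bases, but the reads of these arms were few: 1 of miR-194-1-3p and 2 of miR-194-2-3p over all BAT libraries.

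The BAT libraries held 104064 to 172279 miRNA reads and the plasma libraries 1209116 to 1798169. In BAT vesicles the 7 brown fat miRNAs of a fixed list, which include miR-378a-3p and miR-193b-3p, took 7.02% to 24.1% of Sed reads and 23.7% to 30.9% of Exe reads, against at most 0.501% in plasma. The plasma groups stood apart in makeup. Red cell miRNAs (7 on the list, led by miR-451a) took 70.1% and 52.8% of reads in Sed plasma replicates 1 and 2, where 4 and 5 of the 7 had a read, and 14.1% and 15.0% in Exe plasma, where all 7 had one. The plasma table also holds a second whole number per miRNA, never above the read count, whose origin is not stated. Reads per unit of that number were 3.31 and 21.4 in the Sed plasma libraries and 1.41 and 1.64 in the Exe plasma libraries, so Sed plasma replicate 2 stood far from the rest. What these differences contribute to the plasma results was not tested, and values without each library are given where they matter.

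The question in BAT vesicles was whether liver miRNAs differed between exercised and sedentary mice. Of the 5 liver miRNAs 3 had enough reads to be tested. The hepatocyte miRNA miR-122-5p rose 6.14-fold in Exe, while miR-192-5p and miR-194-5p did not pass the test. In pooled vesicles, more vesicles from one kind of cell and more of a miRNA per vesicle cannot be told apart. Replicates 1, 2 and 3 of Sed held 13, 5 and 4 reads of miR-122-5p, and those of Exe held 88, 30 and 12. As CPM, reads scaled to a common library total that was adjusted by the TMM method, these were 83.3, 37.7 and 36.5 in Sed and 769, 195 and 75.8 in Exe. Exe replicate 1 was the highest library by a wide margin, and the lowest Exe library lay below the highest Sed library, so the groups overlapped. The means were 52.5 ± 26.7 and 347 ± 371 CPM (SD, n = 3 each).

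The log2 fold change of miR-122-5p was 2.62 ± 0.82 (SE), with an adjusted p of 0.0493 in edgeR's quasi-likelihood test (Benjamini-Hochberg adjustment, threshold 0.05). The test called 45 of 199 miRNAs (22.6%), and 19 (9.55%) were higher in Exe, against 26 higher and 20 lower with upper-quartile factors. Ranked by p-value, miR-122-5p was number 45 of those 45, so it passed by the smallest margin of all. Of 16 alternatives 14 could test miR-122-5p. The call held in 7 of these, and every one of the 14 values lay above 0. Without Exe replicate 1 the value was 1.37 (adjusted p = 0.132), without Sed replicate 1, 2 or 3 it was 3.16, 2.48 or 2.51 with no call (adjusted p from 0.16 to 0.296), and without Exe replicate 2 the miRNA had too few reads to be tested. Red cell miRNAs took 6.22%, 4.03% and 3.50% of reads in Sed BAT and 3.50%, 3.57% and 7.19% in Exe BAT. With the red cell list left out the value was 2.61 (adjusted p = 0.0377). Red cell miRNAs do not measure plasma, whose vesicles are rich in miR-122-5p, and the part of blood or plasma in the BAT values was not tested.

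The steadiest of the set in BAT vesicles was miR-192-5p. Its Sed libraries held 146, 99 and 110 reads and its Exe libraries 143, 133 and 147, or 896 ± 134 and 1015 ± 206 CPM (SD, n = 3 each). The groups overlapped, and the log2 fold change was 0.18 ± 0.26 (adjusted p = 0.643). Its cluster neighbour miR-194-5p was read 31, 36 and 48 times in Sed against 46, 49 and 49 times in Exe, again with overlap, and had a log2 fold change of 0.19 ± 0.32 (adjusted p = 0.692), which was -0.04 without Sed replicate 1. Few reads were seen of the rest. The passenger arm miR-122-3p had 0 reads in each Sed library and 1, 2 and 1 in Exe, while miR-215-5p had 1 read in Sed replicate 1, 2 in Exe replicate 3 and 0 elsewhere. In a single BAT library 0 reads allow a share of up to 0.00288%, so a lower level was not detectable at this depth.

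**Figure D1:**
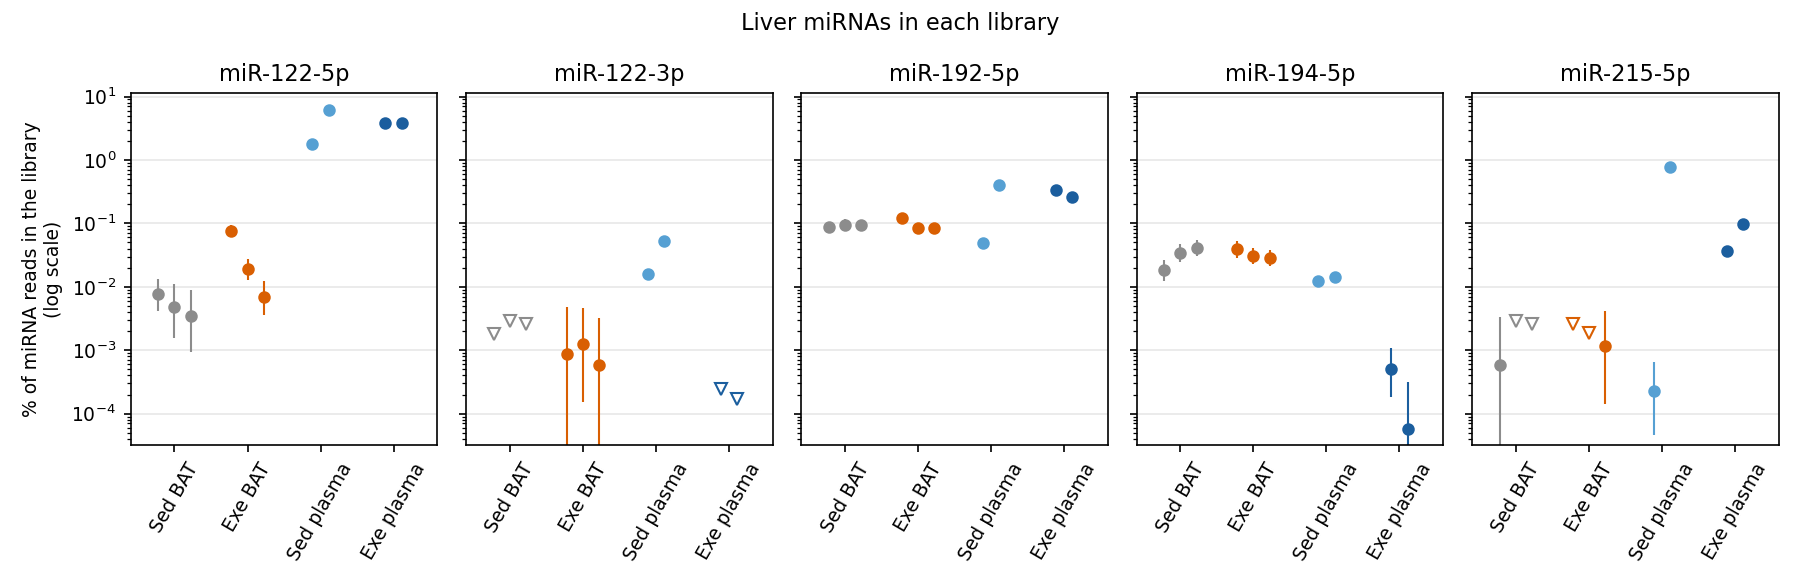
Percent of miRNA reads taken by each liver miRNA in each of the 10 libraries (points, log axis, replicates 1 to n from left to right), with exact 95% counting intervals, cut off at the lower edge of the plot. Open triangles stand at the share that 3 reads would give, for libraries with 0 reads. miR-122-5p is far higher in plasma than in BAT vesicles, miR-192-5p is level across the BAT libraries, and miR-194-5p is lowest in Exe plasma.

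Within a library the ratio of a pair of miRNAs does not depend on scaling. The reads of miR-194-5p came to 21.2%, 36.4% and 43.6% of those of miR-192-5p in Sed BAT and to 32.2%, 36.8% and 33.3% in Exe BAT, so the proportion was 33.7% ± 11.4 and 34.1% ± 2.43 (SD, n = 3 each). The exact 95% counting interval of the lowest library, Sed replicate 1, ran from 13.9% to 31.5%. In contrast, miR-122-5p came to 8.90%, 5.05% and 3.64% of miR-192-5p in Sed BAT and to 61.5%, 22.6% and 8.16% in Exe BAT. Here too Exe replicate 3 lay within the Sed range, and Exe replicate 1, with a counting interval of 46.6% to 80.8%, lay above all others. This last ratio was chosen after its values were seen.

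Few other miRNAs made in liver could be tested in BAT vesicles. Of 8 on a fixed list, 5 were listed for BAT and 2 tested, and of these 1 fell and 0 rose, where 26 of all 199 miRNAs tested (13.1%) were lower in Exe. The fall was that of miR-148a-3p, abundant in liver but also in fat cells, whose reads went from 62, 131 and 47 in Sed down to 24, 45 and 37 in Exe (log2 fold change -1.29 ± 0.38, adjusted p = 0.036). The groups did not overlap, and Sed replicate 2 was the highest. For miR-33-5p, which lies in the gene of the sterol regulator SREBP-2, Sed gave 40, 8 and 23 reads while Exe gave 14, 18 and 15 (-0.66 ± 0.47, adjusted p = 0.322). With too few reads for the test, miR-101a-3p reached 14, 7 and 12 reads in Sed against 4, 6 and 7 in Exe, and miR-101b-3p at most 9 in any BAT library. The list as a whole took 0.0749% to 0.143% of reads in Sed BAT and 0.036% to 0.0472% in Exe BAT. In the lists of other tissues, edgeR called 2 of 7 brown fat miRNAs higher (miR-193b-3p and miR-455-3p) and 2 of 6 muscle (miR-1a-3p and miR-1b-5p), 1 of 7 leukocyte (miR-142a-3p), 1 of 5 epithelial (miR-96-5p) and 1 of 6 red cell miRNAs (miR-486b-3p) lower, with 0 of 3 in the endothelial and platelet list.

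**Figure D2:**
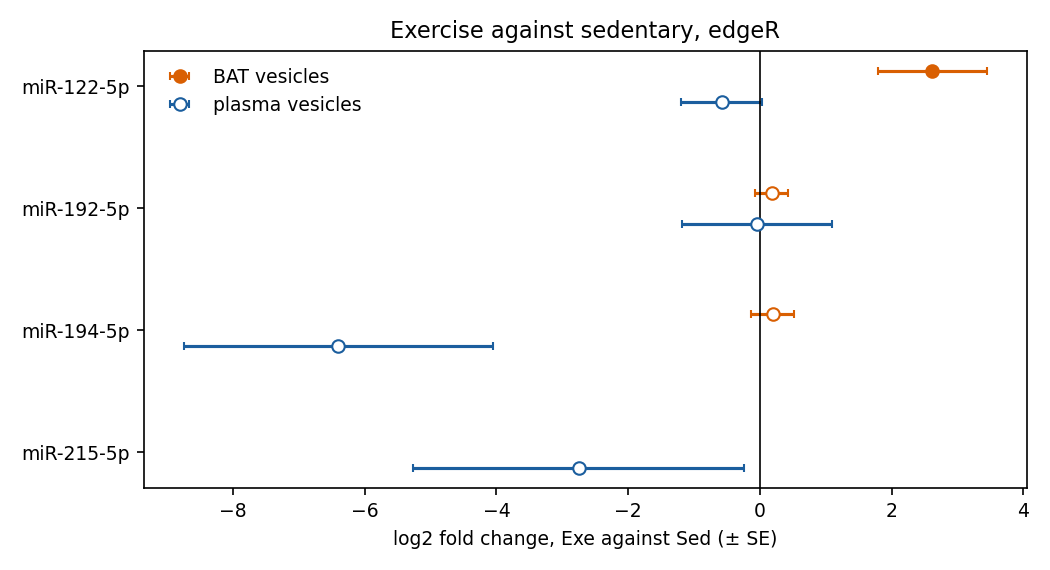
Log2 fold change of Exe against Sed with its standard error from edgeR, in BAT vesicles (orange, 3 libraries a group) and plasma vesicles (blue, 2 a group). The filled point passed the threshold, and it is miR-122-5p in BAT at 2.62. In BAT miR-215-5p was not tested, and miR-122-3p is left out because Exe plasma had 0 reads of it.

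In plasma vesicles, where the same question was asked, miR-122-5p was among the leading miRNAs of every library. It ranked number 5 and 2 in the Sed libraries and 6 and 8 in Exe. Sed libraries held 24360 and 111603 of its reads and Exe libraries 45542 and 67227, or 1.82% and 6.21% of Sed reads and 3.77% and 3.81% of Exe reads. Both Exe values lay between the Sed values. The log2 fold change was -0.58 ± 0.61 (n = 2 per group, adjusted p = 0.54 in edgeR's quasi-likelihood test), and it was 0.11 without Sed replicate 2 and -0.17 with the red cell list left out. The second plasma values gave shares of 3.55% and 7.44% in Sed and 3.94% and 4.09% in Exe.

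By contrast the passenger arm miR-122-3p was seen in the Sed libraries and in neither Exe library of plasma. Sed replicates 1 and 2 held 212 and 934 reads and both Exe libraries 0, at least 533-fold lower in Exe on the TMM scale, with the floor set at 3 reads over the group. The bound was 1050-fold with upper-quartile factors and 361-fold with library size alone, and it covers counting error only. The adjusted p was 0.0899 in edgeR's test as set up here. It passed the threshold in 4 of 14 alternatives, with DESeq2 (4.16e-07) and limma-voom (0.0247), and in edgeR with a mean of at least 50 reads (0.00468) or without Sed replicate 1 (0.0409). The edgeR test called 0 of 182 miRNAs in plasma (0%), with 60 at an unadjusted p under 0.05, against 57 called by DESeq2 and 40 by limma-voom.

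The ratio of the arms of miR-122 shows the same difference without any scaling. In the Sed plasma libraries miR-122-3p came to 0.87% (exact 95% counting interval 0.757 to 0.996) and 0.837% (0.784 to 0.893) of miR-122-5p reads. In Exe plasma 0 reads stood beside 45542 and 67227 reads of the 5p arm, for which the same interval reaches up to 0.0081% and 0.00549%. With the second plasma values the Sed libraries were further apart, at 0.257% and 1.52%, and the Exe libraries again at 0. In Exe BAT vesicles the 4 reads of the 3p arm came to 1.14%, 6.67% and 8.33% of the 5p arm, and the 22 reads of the 5p arm over the Sed BAT libraries were too few to see a proportion such as that of Sed plasma. Of 56 plasma miRNAs with at least 212 reads in each Sed library, 2 (3.57%) had 0 reads in both Exe libraries, miR-122-3p and the epithelial miR-205-5p. The cutoff is the lower Sed count of miR-122-3p itself, so its own place in this count was fixed beforehand. A miRNA with a few reads left in Exe, such as miR-31-5p, is not counted by this rule. In the other direction 2 of 90 miRNAs with at least 212 reads in each Exe library had 0 in both Sed libraries. The miRNA named miR-122b-5p, chosen after its values were seen, also stood at 0 in both Exe libraries beside 39 and 89 reads in Sed, at least 59.5-fold lower in Exe on the TMM scale and 40.3-fold with library size alone.

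The pair of cluster neighbours parted in plasma. Against 168 and 255 reads of miR-194-5p in Sed, Exe held 6 and 1, without overlap. Against 656 and 7192 reads of miR-192-5p in Sed, Exe held 4047 and 4546, both within the Sed range. The log2 fold change of miR-194-5p was -6.40 ± 2.34 (adjusted p = 0.12), at -6.61 with DESeq2 (adjusted p = 0.000434) and -6.57 with limma-voom (adjusted p = 0.0464), both of which called it. That of miR-192-5p was -0.05 ± 1.14 (adjusted p = 0.97), with Sed replicate 1 the low library, and it lay above 0 in 10 of 14 alternatives, 0.40 with library size alone and up to 1.60 without Sed replicate 2. As a share of miR-192-5p reads, miR-194-5p came to 25.6% (21.5 to 30.4) and 3.55% (3.12 to 4.02) in Sed plasma, and to 0.148% (0.0544 to 0.323) and 0.022% (0.000557 to 0.123) in Exe plasma. The Exe plasma libraries thus lay below both Sed plasma libraries and below all 6 BAT libraries, whose lowest ratio was 21.2%.

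The seed partner of miR-192-5p varied most between replicates. Sed plasma replicates 1 and 2 held 3 and 14078 reads of miR-215-5p, while Exe held 444 and 1750. Sed replicate 2 held nearly all Sed reads, and both Exe libraries lay between the Sed libraries. The log2 fold change was -2.75 ± 2.51 (adjusted p = 0.492). Without Sed replicate 1 it was -3.64 (adjusted p = 0.000722), and without Sed replicate 2 it was 7.38 (adjusted p = 0.144), so a single library set its direction. Against miR-192-5p, miR-215-5p came to 0.457% and 196% in Sed plasma and to 10.97% and 38.5% in Exe plasma. Its 3p arm, miR-215-3p, was read 639 and 0 times in Sed against 0 and 357 in Exe (-1.96 ± 3.62, adjusted p = 0.714). In Sed replicate 1 the 3p arm thus outnumbered the 5p arm, whereas Sed replicate 2 and Exe replicate 1 had the 5p arm alone. The arm miR-192-3p had 16 reads in Sed replicate 1 and 0 in the other plasma libraries.

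**Figure D3:**
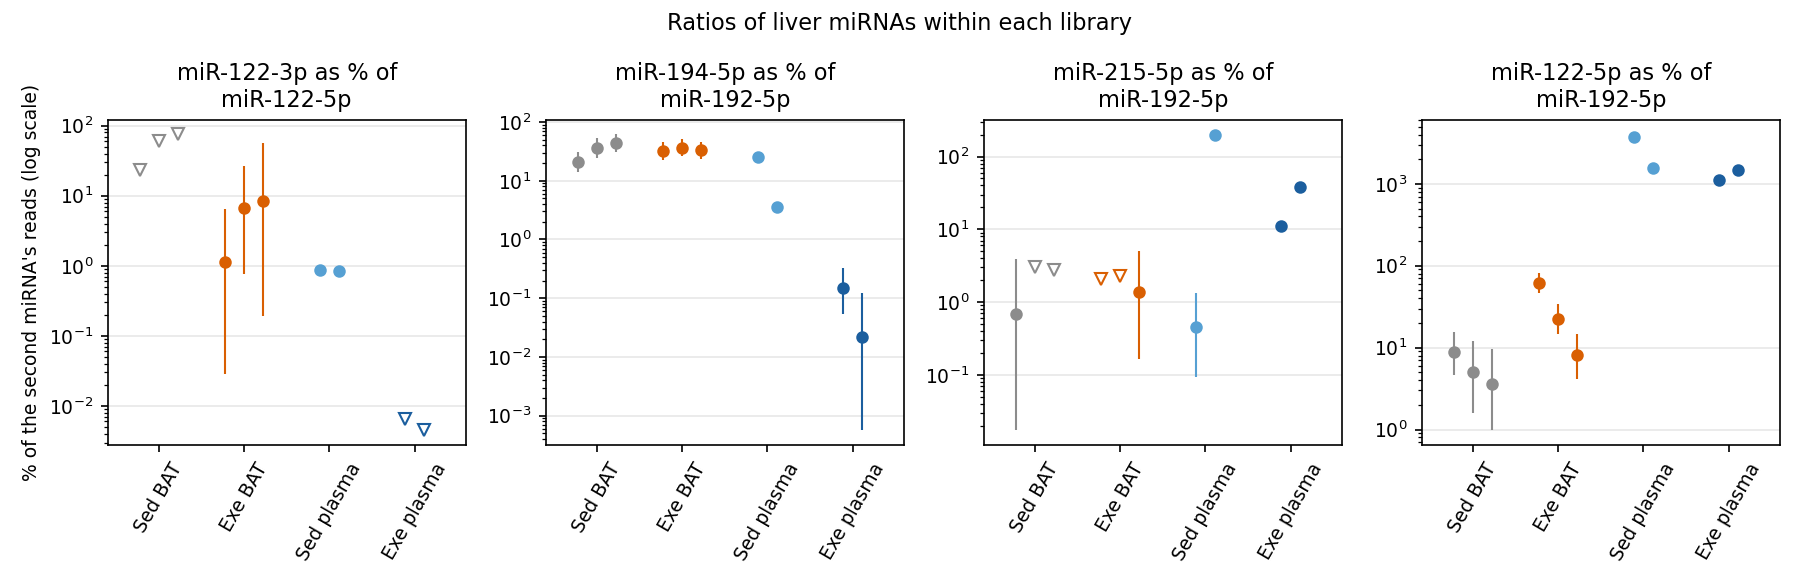
Ratios of reads within each library, as percent of the second miRNA named in each panel (log axes), with exact 95% counting intervals. Open triangles mark libraries with 0 reads of the first miRNA, drawn at the ratio that 3 reads would give. In the Exe plasma libraries miR-122-3p and miR-194-5p are lower relative to their partners than in Sed plasma, while miR-122-5p comes to 11.3, 14.8 and 15.5 times miR-192-5p in 3 of the plasma libraries and to 37.1 times in Sed replicate 1.

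Epithelial miRNAs, fixed as a list because gut and kidney also make miR-192, miR-194 and miR-215, took 0.221% and 0.261% of Sed plasma reads, with all 13 seen, and 2.12% and 2.82% of Exe plasma reads, with 10 of 13 seen in each library. Most of the Exe share was that of miR-375-3p, which is also made in endocrine cells, with 0.00917% and 0.00417% of reads in Sed and 1.97% and 2.45% in Exe. Other members had more reads in an Exe library than in either Sed library, such as miR-429-3p (696 and 331 reads in Sed, 747 and 3078 in Exe) and miR-183-5p (14 and 173 in Sed, 1 and 1925 in Exe). At 0 in both Exe plasma libraries were miR-205-5p, with 228 and 284 reads in Sed, and miR-182-5p, with 8 and 83. Far lower in Exe than in Sed, though not at 0, were miR-200c-3p (767 and 685 CPM in Sed, 9.48 and 5.89 in Exe) and miR-31-5p (436 and 417 CPM in Sed, 2.23 and 1.07 in Exe). These members were chosen after their values were seen. In edgeR 0 of 11 tested passed, and 4 values lay above 0 and 7 below. The part of epithelial sources in the plasma values of miR-192-5p, miR-194-5p and miR-215-5p was not tested. Of the 8 other liver-associated miRNAs, 6 were listed for plasma and 3 tested, and 0 passed: miR-148a-3p (0.66 ± 2.03, 93 and 78 reads in Sed, 25 and 422 in Exe), miR-101b-3p (2.46 ± 3.02) and miR-33-5p (-6.50 ± 2.58, 33 and 134 reads in Sed, 2 and 0 in Exe). The liver and islet miRNA miR-802-5p had 9 reads in Sed replicate 1 and 0 in the other plasma libraries. In the remaining lists the plasma test called 0 of 6 red cell, 0 of 3 brown fat, 0 of 4 muscle, 0 of 5 leukocyte and 0 of 3 endothelial and platelet miRNAs.

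BAT and plasma vesicles were then compared in a joint fit of all 4 groups over the miRNAs in both tables. In that fit an effect of source cannot be told apart from one of table or batch. Of the liver miRNAs, miR-122-5p had the smallest adjusted p in both groups. It was 4578-fold less in BAT than in plasma vesicles in Sed (log2 -12.2 ± 1.21, adjusted p = 6.998e-05) and 304-fold less in Exe (-8.25 ± 1.05, adjusted p = 0.000259). It ranked between number 71 and number 235 in the BAT libraries. The size depends on scaling, since library size alone moved the median of all miRNAs from 1.21 to 3.84 in Sed and from 0.90 to 2.43 in Exe, but the calls of miR-122-5p held in all 19 alternatives, with values of -12.8 to -9.52 in Sed and -9.65 to -6.80 in Exe.

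In Sed the fit called 99 of 234 miRNAs (42.3%), 47 of them lower in BAT (20.1%), against 14 of 152 with library size alone. Of the 5 liver miRNAs 4 were lower in BAT and 0 higher. Next to miR-122-5p these were miR-192-5p, with 507 ± 53.8 CPM in BAT (n = 3) and 7826 ± 8846 in plasma (n = 2) on the joint TMM scale (log2 -3.95 ± 0.83, adjusted p = 0.00415), miR-122-3p, at least 289-fold lower in BAT (adjusted p = 0.000955), and miR-215-5p, higher in plasma by a ratio of 10700 (exact 95% counting interval 1910 to 421000, adjusted p = 0.00421). The miR-192-5p value fell short of the threshold with library size alone (-1.28). That scaling reduced the bound of miR-122-3p to 47-fold and the ratio of miR-215-5p to 1730. Both of these miRNAs were too sparse for the fit of BAT alone and entered the joint fit through their plasma reads. The filter thus favoured a lower call in BAT for both. Without Sed plasma replicate 2 miR-215-5p lost its call (-1.99, adjusted p = 0.352). For miR-194-5p the value was -1.39 ± 0.88 (adjusted p = 0.225), and it turned to 1.24 with library size alone.

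In Exe the fit called 156 miRNAs (66.7%), 96 higher in BAT (41%) and 60 lower (25.6%), against 116 higher and 37 lower with library size alone. All 5 liver miRNAs passed, 3 lower in BAT and 2 higher. As in Sed, miR-215-5p entered the fit through its plasma reads, which favoured a lower call in BAT. Lower in BAT beside miR-122-5p were miR-192-5p (-3.05 ± 0.80, adjusted p = 0.00741), which was no longer called under library size (-1.59) or upper-quartile (-1.84) scaling, and miR-215-5p, with a ratio of 433 (120 to 3580) in favour of plasma (adjusted p = 0.0097), or 163 with library size alone. Higher in BAT was miR-194-5p, at 199 ± 37.2 CPM in BAT (n = 3) and 4.87 ± 5.71 in plasma (n = 2), a log2 difference of 5.35 ± 1.17 (adjusted p = 0.00327). This call held in all 19 alternatives. The other was miR-122-3p, with 4 reads over the Exe BAT libraries and 0 over the deeper Exe plasma libraries (adjusted p = 0.0219). Too sparse for the fit of BAT alone, it entered the joint fit through its reads in Sed plasma, a group outside this contrast. With Exe plasma set at a floor of 3 reads, the 4 reads gave 3.38-fold more in BAT, or 8.95-fold with library size alone. Counting error of the 4 reads is not covered by these values. The call was lost without Exe BAT replicate 2 (adjusted p = 0.0522).

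The order of read counts differed between sources. In 5 of the 6 BAT libraries miR-192-5p came first, then miR-194-5p and then miR-122-5p, and in Exe replicate 1 miR-122-5p, with 88 reads, stood above miR-194-5p with 46. In every plasma library miR-122-5p came first, and miR-192-5p followed in 3 of the 4. In Sed plasma replicate 2 miR-215-5p was second. Mature miRNAs are of nearly the same length, and these orders are of reads, with no correction for how well each RNA is ligated and copied.

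The last comparison was of the exercise effects in plasma and BAT vesicles, as plasma minus BAT. The joint fit called 68 of 234 miRNAs (29.1%), 39 of them lower (16.7%), against 63 of 83 with upper-quartile factors and 27 of 78 with library size alone. Of the liver miRNAs 3 were lower and 0 higher. For miR-122-5p the difference was -3.91 ± 1.27 on the log2 scale (adjusted p = 0.0413), which held in 7 of 19 alternatives and was lost, for example, without Exe BAT replicate 1 (-2.49) or Sed plasma replicate 2 (-2.62). For miR-194-5p it was -6.73 ± 1.42 (adjusted p = 0.00629), which held in all 19. The call of miR-122-3p (adjusted p = 0.00264) rests on 0 reads in Sed BAT and in Exe plasma, so that its fitted size depends on the fit's prior count. This miRNA entered the joint fit through its reads in Sed plasma, a group that is part of this contrast. The differences of miR-192-5p (-0.90 ± 1.12, adjusted p = 0.535) and miR-215-5p (-4.52 ± 3.76, adjusted p = 0.356) did not pass, and both lay above 0 without Sed plasma replicate 2, at 1.46 and 6.36.

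**Figure D4:**
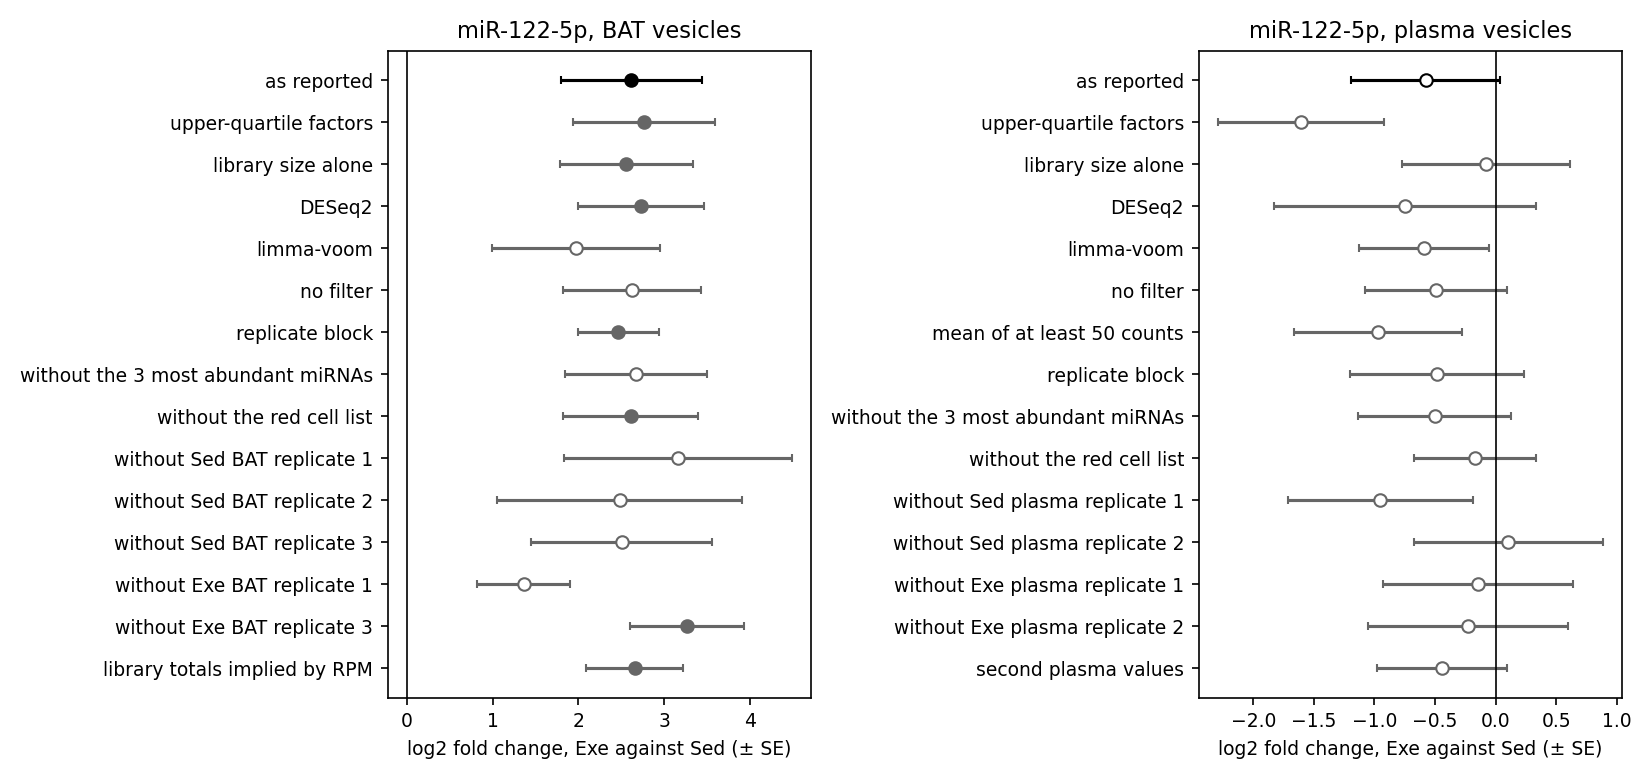
Log2 fold change of miR-122-5p, Exe against Sed, with its standard error under each way of processing, in BAT vesicles (left) and plasma vesicles (right). Filled points have an adjusted p under 0.05. In BAT vesicles all values lie above 0, the lowest at 1.37 without Exe replicate 1, and in plasma vesicles no point is filled.

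Among 237 other miRNAs with a mean of at least 10 reads, the pattern over the 10 libraries most like that of miR-122-5p was that of miR-296-5p, with a mean absolute difference of 0.66 in log2(CPM + 1) after centring within each source. Next came miR-107-3p (0.68), miR-326-3p (0.73), miR-23b-3p (0.80) and miR-22-3p (0.87), against a median of 1.62 over all 237. In that order miR-192-5p was number 11 (0.91), miR-194-5p number 153, the passenger arm miR-122-3p number 199 and miR-215-5p number 215. For miR-192-5p the nearest were miR-423-3p (0.36), miR-296-5p (0.38), miR-26a-5p (0.38), miR-28a-5p (0.39) and miR-181a-5p (0.39), and its cluster neighbour miR-194-5p was number 148 of 237 (1.43, median 1.21). The measure is a description, and the nearest neighbours of miR-122-5p limit it. In plasma miR-296-5p, miR-107-3p and miR-326-3p were close to absent, at no more than 1.13, 0.567 and 0.557 CPM in any library. Their small differences there are those of a near-flat profile at the floor. The likeness does not rest on a shared course in BAT, where miR-296-5p ran from 82.9 to 157 CPM and miR-122-5p from 36.5 to 769.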

How the data were processed

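Per the file headers, the authors gave BAT and plasma vesicles a table each, in which every mature miRNA has a read count for each library. The BAT table, as deposited, also holds RPM, which equal the count over 1 total per library within 0.01. The plasma table holds a second whole number of unstated origin, used only as an alternative. The submitters' processing notes name Bowtie 0.12.2, mm8 and mm9 without saying how each was used. How reads were trimmed and counted is not given in the sources used here.

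Counts were analysed with edgeR 4.0.16 (quasi-likelihood test, TMM scaling, filterByExpr, robust dispersions, Benjamini-Hochberg adjustment over all miRNAs tested) in R 4.3.3, each source alone and jointly over shared miRNAs. The SE is the log2 fold change over the square root of F. DESeq2 1.42.0 and limma 3.58.1 were alternatives, beside other scalings, filters, a block for replicate number, leaving out abundant or red cell miRNAs, and leaving out each library. Shares have exact (Clopper-Pearson) 95% intervals and floors of 3 reads. These cover counting error only, since PCR copies are not independent. The test was checked on simulated data. Plots used Python 3.11.15, scipy 1.17.1 and matplotlib 3.10.9.

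The miRNAs, lists and tests were chosen with earlier results of these data known. Named are the 5 members, other arms and liver-associated miRNAs, members of other lists past the threshold, and the 5 miRNAs nearest in pattern to miR-122-5p and to miR-192-5p.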

Additional observations from a re-analysis of the deposited data

Results flagged for a closer look

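The exercise effect differed between plasma and BAT vesicles, by a test of the difference itself in edgeR's joint fit, for 3 of the 5 liver miRNAs, beside 68 of all 234 miRNAs tested (29.1%). The differences, plasma minus BAT on the log2 scale, were -3.91 for miR-122-5p, -6.73 for miR-194-5p and -16.2 for miR-122-3p. The call of miR-122-5p was lost in 12 of 19 alternatives and that of miR-194-5p in 0. The value of miR-122-3p is a fitted one against groups with 0 reads and gives no size. That miRNA passed the filter of the joint fit through its reads in Sed plasma. The red cell share and the reads per second value of the plasma libraries moved with their groups, and their part in these differences was not tested.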

How the results depend on the processing

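In BAT vesicles the number of miRNAs called (45) was 21 with a mean of at least 50 reads, 25 with a replicate block and 16 to 56 with 1 library left out, 22, 28 and 16 without Exe replicates 1, 2 and 3 and highest without Sed replicate 2. The value of miR-122-5p was 1.97 with limma-voom, 2.62 with no filter (adjusted p = 0.0913) and 2.67 without the 3 most abundant miRNAs, all without a call, and 1.37 to 3.26 with 1 library left out. With a mean of at least 50 reads it was not tested. That of miR-194-5p was -0.039 to 0.57 with 1 library left out.

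In plasma vesicles the count (0) was 4 with upper-quartile factors, 10 with library size alone, 57 with DESeq2, 40 with limma-voom, 17 with no filter, 29 with a mean of at least 50 reads, 7 with the replicate block, 1 without the 3 most abundant miRNAs, 2 without the red cell list, 11 with the second values, and 3 (Exe replicate 2) to 27 (Sed replicate 1 or Exe replicate 1) with 1 library left out, 24 without Sed replicate 2. The value of miR-122-5p was -0.95 to 0.11 with 1 library left out. That of miR-192-5p was 0.40 with library size alone, 0.18 with limma-voom, 0.043 with no filter, 0.41 with the replicate block, 0.0073 without the 3 most abundant miRNAs, 0.40 without the red cell list, 0.45 with the second values, and -0.71 to 1.60 with 1 library left out. That of miR-215-5p was 0.54 with limma-voom, 1.34 with the replicate block, and -3.64 to 7.38 with 1 library left out. The ratio of miR-122-3p to miR-122-5p in Sed plasma, 0.854% on average, was 0.888% with the second values. Behind these means the Sed libraries stood at 0.87% and 0.837% with reads but at 0.257% and 1.52% with the second values. Library size alone moved the median of all miRNAs from 0.32 to 0.95, and upper-quartile factors moved it to -0.59.

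Between BAT and plasma, the count in Sed (99) was 152 with library size alone, 150 with DESeq2, and 77 to 149 (without Exe plasma replicate 2) with 1 library left out, and miR-194-5p was 1.24 with library size alone. The count in Exe (156) was 82 with a mean of at least 50 reads and 131 to 205 with 1 library left out. For the difference of the exercise effects the count (68) was 45 with the replicate block and 36 to 119 with 1 library left out, at most 42 when it was a BAT library and 119 without Exe plasma replicate 1. There miR-122-5p was -2.73 with library size alone, -3.04 with limma-voom, -3.19 with the replicate block, -3.49 without the red cell list, all without a call, and -4.60 to -2.49 with 1 library left out. There miR-192-5p was 0.31 with library size alone and -1.80 to 1.46 with 1 library left out, and miR-215-5p was 0.61 with limma-voom, 0.15 with the replicate block and -6.90 to 6.36 with 1 library left out. The causes of these changes were not tested.

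Libraries of the same number did not deviate together in BAT (r of 0.06, -0.21 and -0.19), though centring within groups limits these values. In plasma, with 2 libraries a group, centring makes both values (-0.08 and -0.08) the same number, so they cannot decide on pairing. No label says that a number marks a shared animal or batch, and the numbers were not taken to pair libraries. With the replicate block miR-122-5p in BAT was 2.47 (adjusted p = 0.0406). The block ended the calls of miR-215-5p (adjusted p = 0.0926 in Sed and 0.0596 in Exe) and miR-122-3p (0.101 in Exe) between BAT and plasma, and of miR-122-3p in the difference of the effects (0.0547). In BAT 12 reads or fewer stood behind miR-122-5p in 3 libraries, and depth limits every statement on miR-122-3p and miR-215-5p there.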
